A study of Homo sapiens with 6 samples.

Results

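The genes of hyaluronan synthesis, reception and turnover were followed in TC28a2 cells, an immortalized human chondrocyte line, after treatment with the class I histone deacetylase inhibitor mocetinostat. The group held 8 genes of the 60623 in the deposited count table, taken by their gene names: the synthases *HAS1*, *HAS2*, and *HAS3*, the receptor *CD44*, the hyaluronidases *HYAL1*, *HYAL2*, and *HYAL3*, and the depolymerization factor *CEMIP*. Per the study's methods, cells received 2 μM mocetinostat or the solvent DMSO alone for 24 hours, and total RNA was sequenced from 3 samples per condition (6 samples in all). All 6 samples are of this single line. The study states that the samples of a condition came from separate experiments, while the labels give only replicate numbers, and p-values cover the spread between these samples and not between donors.

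Hyaluronan is a long, unsulfated chain of alternating glucuronic acid and N-acetylglucosamine. HAS enzymes build it at the plasma membrane from UDP-sugars and push the growing chain out of the cell. In cartilage it forms the backbone on which aggrecan is held by link protein, and CD44 ties that complex to the chondrocyte. The chain is cut outside the cell by HYAL2, CEMIP, or CEMIP2 (also called TMEM2), and the fragments are degraded in lysosomes by HYAL1 and exoglycosidases.

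Total counts were between 4873426 and 11031132 in the DMSO-treated samples and between 1619344 and 5089542 in the mocetinostat-treated samples. A count of 3, taken as the floor of detection, therefore equaled 0.271 to 0.625 CPM (counts scaled to library size, normalized by the TMM method of edgeR) with DMSO and 0.595 to 1.86 CPM with mocetinostat. Of the 13966 genes that passed the expression filter, 20.2% were upregulated and 8.18% downregulated. Both terms stand for a log2 fold change larger than 1 in size together with an adjusted p under 0.05. Without a minimum fold change, 32.9% were higher and 31.4% lower at an adjusted p under 0.05. *GAPDH* had a log2 fold change of -0.53 (edgeR adjusted p = 2.58e-12), and scaling to it shifted the median log2 fold change of all genes by 0.54. Of 16 chondrocyte markers, 10 were tested and 8 were higher with mocetinostat, and their summed level was 127 to 149 CPM with DMSO and 274 to 317 CPM with mocetinostat. *SOX9* was abundant among them, while *CNMD* had no count in any sample and *MATN1* had at most 9. Markers of other cell types moved as well: 4 of 7 epithelial markers were tested and all 4 were higher (summed level 900 to 1080 against 1940 to 1990 CPM, mostly *KRT8* and *KRT18*), and 7 fibroblast markers summed to 4660 to 5630 against 4330 to 4700 CPM. That sum was mostly *COL1A1*, and of the 6 fibroblast markers tested 4 were higher and 2 lower, with log2 fold changes from -1.35 for *COL3A1* to 3.82 for *PDGFRA*. The 4 endothelial markers summed to 5.52 to 7.5 against 18.6 to 24 CPM and the 5 leukocyte markers to 2.53 to 5 against 6.74 to 12.4 CPM, with *PTPRC* at 0 to 9 counts. The leukocyte sum rose through *CD14*, the only leukocyte marker tested, with means of 0.915 and 7.46 CPM. Of the untested ones, *PTPRC*, *CD68*, and *ITGAM* had lower means with mocetinostat and *LYZ* a higher one. *EPCAM*, *CDH1*, *SOX5*, *COMP*, *PECAM1*, *PDGFRA*, and *CD14* reached the filter's cutoff of 2.01 CPM only in the mocetinostat-treated samples. These could enter only as higher, so the counts of higher markers are not to be read as an excess over the 32.9% of all genes. The part of these marker shifts in the results that follow was not tested.

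The promoters of the 3 hyaluronan genes that passed the test, and of *CEMIP2*, which moved opposite to *CEMIP*, are given here so that their sequences can be read beside the values. Each runs 5′ to 3′ along the gene from 250 bases before to 50 bases after the RefSeq transcription start (GRCh38.p14). The *HAS3*, *CD44*, and *CEMIP2* windows lie within the gene spans given below. Each thus shows a single start, and starts further upstream in those spans were not examined. Capitals mark matches on either strand to the GC box, with the letters GGGCGG, to a motif of the CACCC type, with the letters CCACACCC, or to the TATA box, with the letters TATAAA. The AP-1 site, searched as TGAGTCA, and the cAMP response element, searched as TGACGTCA, were also searched and had no match in these windows. No motif is contained in another.
HAS3, chr16:69107290-69107589, plus strand: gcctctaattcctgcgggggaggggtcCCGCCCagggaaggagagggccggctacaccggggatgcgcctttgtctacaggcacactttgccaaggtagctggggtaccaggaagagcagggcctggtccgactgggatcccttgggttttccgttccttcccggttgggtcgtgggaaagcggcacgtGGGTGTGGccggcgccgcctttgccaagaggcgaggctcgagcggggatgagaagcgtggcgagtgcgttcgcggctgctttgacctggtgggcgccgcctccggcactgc
CD44, chr11:35138921-35139220, plus strand: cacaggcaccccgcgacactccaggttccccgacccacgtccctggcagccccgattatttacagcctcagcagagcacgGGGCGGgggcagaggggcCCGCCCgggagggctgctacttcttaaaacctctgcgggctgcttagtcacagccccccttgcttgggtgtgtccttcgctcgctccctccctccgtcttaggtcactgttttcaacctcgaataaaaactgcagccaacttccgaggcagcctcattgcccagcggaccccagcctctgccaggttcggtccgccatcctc
CEMIP, chr15:80779120-80779419, plus strand: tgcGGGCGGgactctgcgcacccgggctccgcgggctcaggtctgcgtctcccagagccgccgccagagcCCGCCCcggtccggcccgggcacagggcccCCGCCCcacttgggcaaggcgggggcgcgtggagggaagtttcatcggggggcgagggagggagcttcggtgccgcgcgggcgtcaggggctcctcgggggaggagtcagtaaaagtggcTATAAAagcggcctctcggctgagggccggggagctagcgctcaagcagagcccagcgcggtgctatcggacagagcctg
CEMIP2, chr9:71768464-71768763, minus strand: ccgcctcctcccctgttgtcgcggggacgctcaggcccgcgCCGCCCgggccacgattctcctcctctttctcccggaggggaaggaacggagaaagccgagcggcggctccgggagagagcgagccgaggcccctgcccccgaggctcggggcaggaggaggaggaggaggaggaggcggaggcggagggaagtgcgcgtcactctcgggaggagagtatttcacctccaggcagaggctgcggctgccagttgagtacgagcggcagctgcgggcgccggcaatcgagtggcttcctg
GC boxes numbered 1 in *HAS3*, 2 in *CD44*, 3 in *CEMIP*, and 1 in *CEMIP2*, and 45.0% of the 35116 promoters in the RefSeq set hold at least 1. The *CEMIP* window has a TATA box that starts 30 bases before the transcription start, a motif found in 11.5% of promoters. The *HAS3* window has a CACCC box, which 3.3% of promoters hold. CpG dinucleotides numbered 32 in *CEMIP*, 31 in *CEMIP2*, 25 in *HAS3*, and 18 in *CD44*, against a median of 14 over all promoters. These matches describe letters in the windows and were not tied to the values that follow.

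Levels between the genes were compared as CPM per kilobase of exon. With DMSO, *CD44* stood highest at 65.6 ± 5.0 CPM per kilobase (SD, n = 3), followed by *CEMIP* at 22.2 ± 1.25, *HYAL2* at 6.24 ± 0.642, *HYAL3* at 2.27 ± 0.051, and *HAS2* at 1.66 ± 0.251 CPM per kilobase (SD, n = 3). No sample of one of these genes overlapped the next in that order. *HAS3*, *HYAL1*, and *HAS1* followed at 0.280 ± 0.225, 0.116 ± 0.105, and 0.0849 ± 0.0812 CPM per kilobase (SD, n = 3), and their ranges overlapped. With mocetinostat the order was the same, with *CD44* at 87.3 ± 3.05, *CEMIP* at 11.5 ± 1.01, *HYAL2* at 4.85 ± 1.66, *HYAL3* at 2.96 ± 1.23, *HAS2* at 2.13 ± 0.981, *HAS3* at 0.963 ± 0.431, *HYAL1* at 0.665 ± 0.642, and *HAS1* at 0.0617 ± 0.107 CPM per kilobase (SD, n = 3). There the ranges of *HYAL2* and *HYAL3*, of *HYAL3* and *HAS2*, and of *HAS3* and *HYAL1* overlapped.

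**Figure D1:**
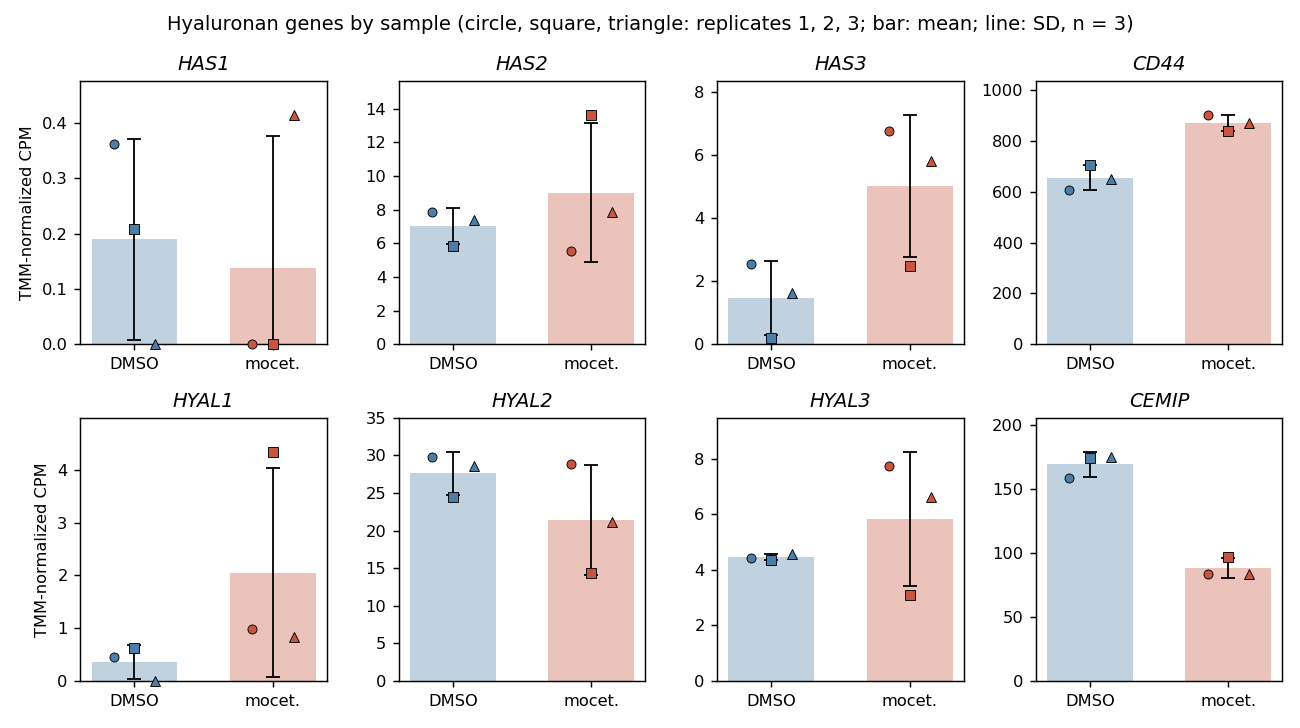
TMM-normalized CPM of the 8 hyaluronan genes by condition, each panel with its own axis from 0 (circle, square, and triangle, replicates 1, 2, and 3; bar, mean; line, SD, n = 3). The conditions were separate for *CD44* and *CEMIP*, and also for *HYAL1* at no more than 7 counts, and they overlapped for the other genes.

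Of the 8 genes, 6 passed the expression filter and 2, *HAS1* and *HYAL1*, did not. In the 6, mocetinostat raised *HAS3* and *CD44* and lowered *CEMIP* at an adjusted p under 0.05, while *HAS2*, *HYAL2*, and *HYAL3* did not pass the test. *HAS3* reached the filter's cutoff of 2.01 CPM in only 1 DMSO-treated sample and in all 3 mocetinostat-treated samples, so it was tested only through the condition in which it was higher. Of the 6 tested genes, 3 thus passed, 2 higher and 1 lower, against 64.3% of all genes tested in either direction, 32.9% higher and 31.4% lower. Only *HAS3* also exceeded the fold change threshold, which makes 1 of 6 upregulated and 0 of 6 downregulated against 20.2% and 8.18%, so that the group did not stand apart from all genes. The median log2 fold change of the 6 was 0.30, and that of all genes tested was 0.00. The normalized conditions did not overlap in 2 of the 6, *CD44* and *CEMIP*, and in 66.5% of all genes tested. In bulk RNA, fewer cells of a type and less RNA per cell cannot be told apart.

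*HAS3* encodes the synthase known for making shorter chains at a high rate (ENSG00000103044, chromosome 16 of GRCh38 from 69105653 to 69118719). Its reads numbered 28, 1, and 11 under DMSO and 34, 4, and 14 under mocetinostat, in the order of the replicate numbers, which is kept below. Normalized, this was 2.53, 0.208, and 1.62 CPM with DMSO and 6.74, 2.48, and 5.80 CPM with mocetinostat. Replicate 2 was lowest in both conditions, and the mocetinostat-treated replicate 2 lay just below DMSO-treated replicate 1, so that the conditions overlapped by this pair. The mean went from 1.45 ± 1.17 to 5.01 ± 2.24 CPM (SD, n = 3), which is a log2 fold change of 1.71 with a standard error of 0.48 (95% interval 0.75 to 2.66, edgeR adjusted p = 0.00133). DESeq2 gave a log2 fold change of 1.72 with an adjusted p of 0.0486, just under the threshold. Without mocetinostat replicate 1 the adjusted p in edgeR was 0.0655 (log2 fold change 1.39), and without DMSO replicate 1 the log2 fold change was 2.37. Exons of the genes *CHTF8* and *DERPC* on the opposite strand cover 7.02% of the *HAS3* exons, and these 2 genes held at most 14 counts in a sample.

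*HAS2* encodes the main synthase of mesenchymal cells and chondrocytes (ENSG00000170961, chromosome 8 from 121612116 to 121641440). It held 87, 28, and 50 reads under DMSO and 28, 22, and 19 under mocetinostat, or 7.87, 5.83, and 7.37 against 5.55, 13.6, and 7.87 CPM. The highest and the lowest of the 6 samples were both mocetinostat-treated. The log2 fold change was 0.19 with a standard error of 0.32 (95% interval -0.44 to 0.82, edgeR adjusted p = 0.616), an interval from 0.737-fold to 1.76-fold. Its sign turned without mocetinostat replicate 2, the shallowest library, where the log2 fold change was -0.17. Other alternatives went further up, with 0.73 under *GAPDH* scaling (edgeR adjusted p = 0.0443) and 0.72 after thinning (edgeR adjusted p = 0.0973).

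*HAS2-AS1*, the long noncoding RNA on the opposite strand whose exons cover 5.92% of those of *HAS2*, reached the filter's cutoff only in the mocetinostat-treated samples. It held 4, 6, and 4 reads under DMSO and 18, 4, and 8 under mocetinostat, with a log2 fold change of 2.29 with a standard error of 0.60 (edgeR adjusted p = 6.47e-04). The ratio of *HAS2-AS1* to *HAS2* counts was 0.0460, 0.214, and 0.0800 with DMSO and 0.643, 0.182, and 0.421 with mocetinostat. The ratios overlapped, and an exact two-sided permutation test over the 6 samples gave p = 0.2, where 0.1 is the smallest possible. Whether reads were counted by strand is not given in the sources used here, so reads from the shared stretch cannot be told apart.

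*HAS1*, the least studied of the synthases, was near the floor (ENSG00000105509, chromosome 19 from 51713112 to 51723991). It held 4, 1, and 0 reads under DMSO and 0, 0, and 1 under mocetinostat, and no fold change is given.

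Within the synthase family, *HAS2* held 74.1%, 91.2%, and 84.8% of the counts per kilobase under DMSO and 50.2%, 87.1%, and 58.8% under mocetinostat. *HAS3* held 19.4%, 2.66%, and 15.2% with DMSO and 49.8%, 12.9%, and 35.3% with mocetinostat. *HAS2* was thus the largest part in every sample per kilobase, but without division by length *HAS3* led in mocetinostat replicate 1, with 54.8% against 45.2%. The mean *HAS3* share was 20.2 percentage points higher with mocetinostat, but the conditions overlapped and an exact two-sided permutation test gave p = 0.3. The smallest p possible was 0.1, and the family as a whole held 26 to 119 counts per sample.

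**Figure D2:**
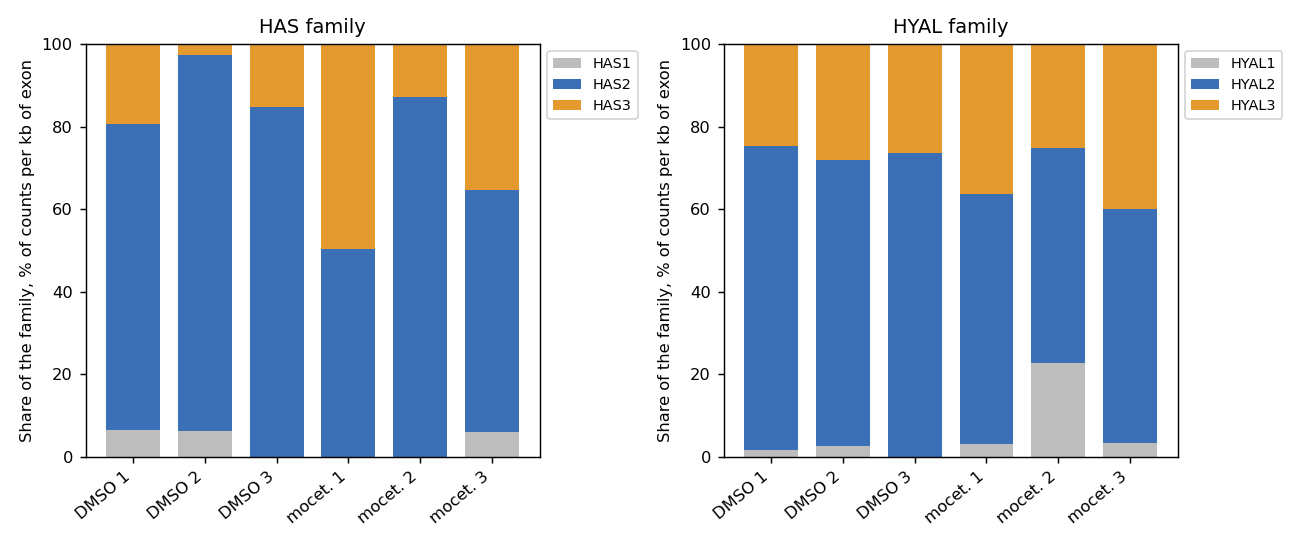
Makeup of the HAS family (left) and the HYAL family (right) in each of the 6 samples, as percent of the family's counts per kilobase of exon. *HAS3* takes from 2.66% to 19.4% with DMSO and from 12.9% to 49.8% with mocetinostat, and *HYAL2* takes from 69.4% to 73.7% with DMSO and from 52.0% to 60.6% with mocetinostat.

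*CD44*, the principal hyaluronan receptor of chondrocytes and a single-pass membrane glycoprotein with many splice forms, had by far the most reads of the 8 genes (ENSG00000026508, chromosome 11 from 35138882 to 35232402). It held 6722, 3399, and 4422 reads under DMSO and 4552, 1358, and 2103 under mocetinostat. Normalized, these were 608, 708, and 652 CPM with DMSO and 902, 842, and 872 CPM with mocetinostat, and the lowest treated sample was above the highest control. The log2 fold change was 0.41 with a standard error of 0.07 (95% interval 0.27 to 0.55, edgeR adjusted p = 3.85e-07), a 1.33-fold rise that stayed below the fold change threshold. Without an expression filter the log2 fold change was 0.16 and the adjusted p of edgeR was 0.1. Counts per gene do not separate its splice forms.

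*CEMIP*, whose product binds hyaluronan and is needed for its depolymerization in fibroblasts and chondrocytes, was the gene that fell (ENSG00000103888, chromosome 15 from 80779343 to 80951776). It held 1745, 836, and 1185 reads under DMSO and 421, 156, and 201 under mocetinostat. Normalized, these were 158, 174, and 175 CPM against 83.5, 96.7, and 83.3 CPM, with no overlap between the conditions. The log2 fold change was -0.96 with a standard error of 0.10 (95% interval -1.16 to -0.75, edgeR adjusted p = 3.37e-13), so that the level with DMSO was 1.94-fold that with mocetinostat. This lies at the edge of the fold change threshold. Without DMSO replicate 1 or without mocetinostat replicate 2 it was -1.03 or -1.04, which counts as downregulated. The same holds without an expression filter, where it was -1.21. It was smaller in size under *GAPDH* scaling, at -0.42 (edgeR adjusted p = 7.69e-04). After thinning it was -0.82, and with 10 counts in every sample it was -0.88.

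*HYAL2*, the membrane-anchored hyaluronidase that cuts long chains at the cell surface, held 329, 117, and 194 reads under DMSO and 146, 23, and 51 under mocetinostat (ENSG00000068001, chromosome 3 from 50317790 to 50322782). Its level was 29.8, 24.4, and 28.6 CPM with DMSO and 28.9, 14.3, and 21.1 CPM with mocetinostat. Mocetinostat replicate 1 lay among the DMSO-treated samples and the other two below them. The log2 fold change was -0.27 with a standard error of 0.18 (95% interval -0.63 to 0.09, edgeR adjusted p = 0.187). Without mocetinostat replicate 1 it was -0.62, with an adjusted p of 0.0174 in edgeR, and scaling to *GAPDH* turned it to 0.27.

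*HYAL3*, a family member whose own enzyme activity is weak or disputed, held 49, 21, and 31 reads under DMSO and 39, 5, and 16 under mocetinostat (ENSG00000186792, chromosome 3 from 50292831 to 50299405). The DMSO-treated samples were close together at 4.43, 4.37, and 4.57 CPM, and the mocetinostat-treated samples lay on both sides of them at 7.73, 3.1, and 6.63 CPM. The log2 fold change was 0.50 with a standard error of 0.36 (95% interval -0.21 to 1.21, edgeR adjusted p = 0.220). Scaled to *GAPDH* it was 1.04, with an adjusted p of 0.0108 in edgeR, which counts as upregulated.

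*HYAL1*, the lysosomal hyaluronidase, was close to the floor (ENSG00000114378, chromosome 3 from 50299890 to 50312381). It held 5, 3, and 0 reads under DMSO and 5, 7, and 2 under mocetinostat and was not tested. The summed counts, 8 with DMSO and 14 with mocetinostat, give a ratio of 4.37 after normalization (95% exact interval 1.71 to 12, counting error only), and mocetinostat replicate 2 supplied 7 of the 14.

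Within the hyaluronidase family, *HYAL2* held 73.7%, 69.4%, and 73.6% of the counts per kilobase with DMSO and 60.6%, 52.0%, and 56.8% with mocetinostat. The share was lower in every mocetinostat-treated sample than in every DMSO-treated sample. The mean difference was -15.8 percentage points, with p = 0.1 in an exact two-sided permutation test, the smallest p that 3 samples against 3 allow. The mean shares of *HYAL1*, close to the floor, and *HYAL3* were higher by 8.22 and 7.57 points. The family held 35 to 383 counts per sample. In mocetinostat replicate 2, the sample with the fewest, the 7 reads of *HYAL1* made 22.7% of the counts per kilobase. Reads in exons shared between neighbors limit these values, since *TUSC2* on the same strand covers 11.5% of the *HYAL2* exons and *NAA80* and *IFRD2* cover 11.8% and 2.19% of the *HYAL3* exons.

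Outside the 8 genes, 60 genes in 7 lists around them were examined, of which 43 were tested. In these, 11 were upregulated and 2 downregulated, and without a minimum fold change 22 were higher and 11 lower, against 20.2%, 8.18%, 32.9%, and 31.4% of all genes tested. The upregulated genes include *NCAN*, *ITIH5*, and *ANK3*, which reached the filter's cutoff only in the mocetinostat-treated samples. These could enter only as higher, so the counts of higher genes are not to be read as an excess. The median log2 fold change of the 43 was 0.27, against 0.00 over all genes.

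The enzymes that supply the UDP-sugars were all expressed, with 13 of 13 tested, 5 higher, none lower, and 1 upregulated (median log2 fold change 0.25), against 32.9% higher and 20.2% upregulated over all genes tested. *UXS1*, which converts UDP-glucuronic acid to UDP-xylose and so competes for the precursor, went from 67.3 ± 4.79 to 153 ± 7.61 CPM (SD, n = 3), which is a log2 fold change of 1.18 (SE 0.10, edgeR adjusted p = 1.75e-16). *UGDH*, which makes UDP-glucuronic acid, had 64.8, 77.3, and 57.5 CPM under DMSO, 74.5, 65.1, and 75.4 CPM under mocetinostat, and a log2 fold change of 0.13 (edgeR adjusted p = 0.367). The other 4 genes past the test belong to the N-acetylglucosamine branch. Of these, *GFPT2*, a rate-limiting enzyme of the hexosamine pathway and the most abundant gene of this list, rose from 180 ± 10.1 to 213 ± 1.65 CPM (SD, n = 3), which is a log2 fold change of 0.25 that was 0.00 in size without an expression filter. *GFPT1*, *PGM3*, and *NAGK* had log2 fold changes of 0.46, 0.60, and 0.52.

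Of the 16 genes for proteins that bind hyaluronan in the matrix, 8 were tested, 8 were higher, and 5 were upregulated (median log2 fold change 2.10), against 32.9% and 20.2% of all genes tested. Of the 8, *NCAN* and *ITIH5* reached the filter's cutoff only in the mocetinostat-treated samples, so that they could enter only as higher. *TNFAIP6* encodes TSG-6, which transfers heavy chains onto hyaluronan. It held 47, 17, and 16 reads under DMSO and 242, 48, and 112 under mocetinostat, and went from 3.38 ± 0.957 to 41.4 ± 10.1 CPM (SD, n = 3), which is a log2 fold change of 3.60 (SE 0.23, edgeR adjusted p = 2.44e-23). Every treated sample was above every control sample. *ITIH5*, which encodes such a heavy chain, held 0, 4, and 0 reads under DMSO and 27, 6, and 12 under mocetinostat, a ratio of 28.1 in normalized summed counts (95% exact interval 10.2 to 108, counting error only). *NCAN*, a lectican proteoglycan of the nervous system, held 0, 1, and 1 reads under DMSO and 38, 9, and 20 under mocetinostat, a ratio of 83.6 (95% exact interval 22.3 to 705, counting error only).

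The cartilage lectican *ACAN* was also upregulated, with a log2 fold change of 2.75. Link proteins, which lock lecticans onto the chain, were represented by *HAPLN3*, with 10.1 ± 1.39 and 27.5 ± 5.56 CPM (SD, n = 3) and a log2 fold change of 1.45 (SE 0.21, edgeR adjusted p = 4.66e-09), and by *HAPLN1*, with a log2 fold change of 0.89 (edgeR adjusted p = 0.00853). *VCAN* and *PTX3*, the most abundant gene of the list, were higher by log2 fold changes of 0.63 and 0.61. The 8 genes not tested were low, with at most 7 counts in a sample, and *HAPLN4* had none. *ACAN* and *HAPLN1* are also among the chondrocyte markers above.

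**Figure D3:**
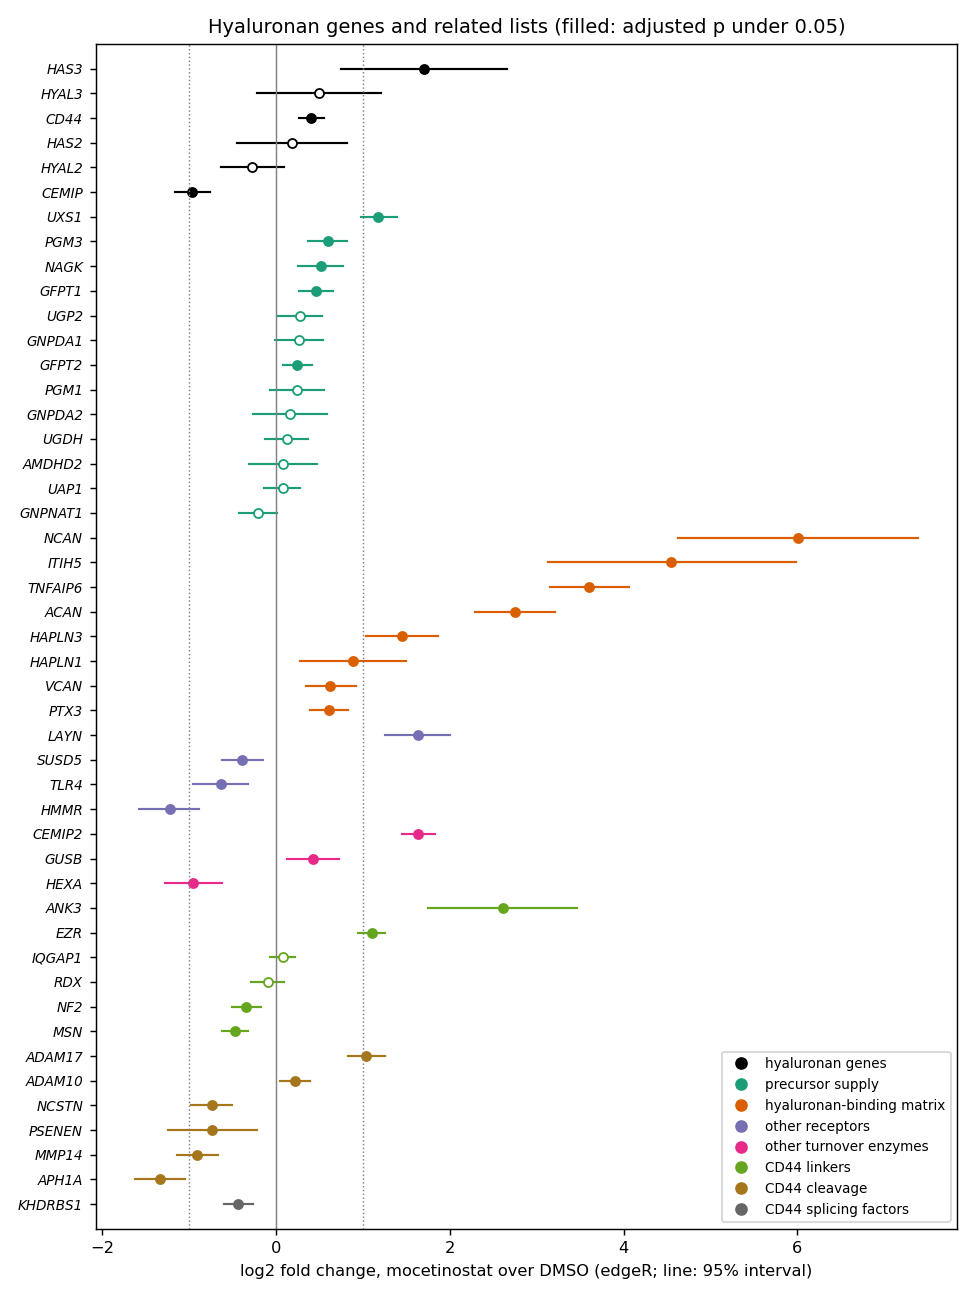
Log2 fold change of mocetinostat over DMSO with its 95% interval in edgeR for the 6 tested hyaluronan genes and tested genes of the related lists (colors; filled points, adjusted p under 0.05; dotted lines, the fold change threshold). All 8 hyaluronan-binding matrix genes lie above 0, while the other receptors, turnover enzymes, CD44 linkers, and CD44 cleavage enzymes lie on both sides.

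Among the other cell-surface receptors, 4 of 8 were tested, with 1 higher and 3 lower, against 32.9% and 31.4% of all genes tested. *LAYN*, which encodes layilin, rose from 11.1 ± 1.03 to 34.3 ± 3.95 CPM (SD, n = 3), which is a log2 fold change of 1.64 (SE 0.19, edgeR adjusted p = 5.93e-12). *HMMR*, which encodes RHAMM, a hyaluronan-binding protein that also serves the mitotic spindle, fell from 43.2 ± 7.33 to 17.9 ± 3.29 CPM (SD, n = 3), which is a log2 fold change of -1.22 (SE 0.17, edgeR adjusted p = 3.52e-09). The ratio of *LAYN* to *HMMR* counts was 0.242, 0.255, and 0.284 with DMSO and 1.77, 1.81, and 2.24 with mocetinostat (exact two-sided permutation p = 0.1, the smallest possible). This pair was chosen for its opposite changes, which fixed that p beforehand, so it adds no support to them. *TLR4* was lower by a log2 fold change of -0.63, and *SUSD5*, a link-domain protein and the most abundant of this list, by -0.39, which became 0.14 under *GAPDH* scaling. *LYVE1*, *STAB1*, *STAB2*, and *TLR2* had at most 8 counts in a sample.

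Among the other turnover enzymes, the change opposite to that of *CEMIP* was found in its paralog. *CEMIP2*, which encodes a transmembrane protein, held 784, 314, and 496 reads under DMSO and 1090, 337, and 551 under mocetinostat (ENSG00000135048, chromosome 9 from 71683366 to 71816690). It rose from 69.8 ± 3.98 to 218 ± 9.86 CPM (SD, n = 3), which is a log2 fold change of 1.64 (SE 0.10, edgeR adjusted p = 6.23e-25). The *CEMIP2* to *CEMIP* count ratio was 0.449, 0.376, and 0.419 with DMSO and 2.59, 2.16, and 2.74 with mocetinostat. The ratio was thus 6.01-fold higher with mocetinostat, without overlap, and the exact two-sided permutation p was 0.1, the smallest possible. Here too the pair was chosen for its opposite changes, which fixed that p beforehand, so it adds no support to them. Being formed within each library, the ratio does not depend on the normalization.

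Of the lysosomal exoglycosidases that finish hyaluronan fragments, *GUSB*, which encodes β-glucuronidase, rose from 30.6 ± 3.13 to 40.6 ± 2.93 CPM (SD, n = 3), and its log2 fold change was 0.43 (edgeR adjusted p = 0.0104). *HEXA*, which encodes a subunit of a lysosomal hexosaminidase, fell from 45.2 ± 5.49 to 24.5 ± 6.87 CPM (SD, n = 3), which is a log2 fold change of -0.95 (SE 0.16, edgeR adjusted p = 5.70e-07). The remaining hyaluronidase genes *HYAL4*, *SPAM1*, and *HYAL6P* had at most 2 counts in a sample.

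**Figure D4:**
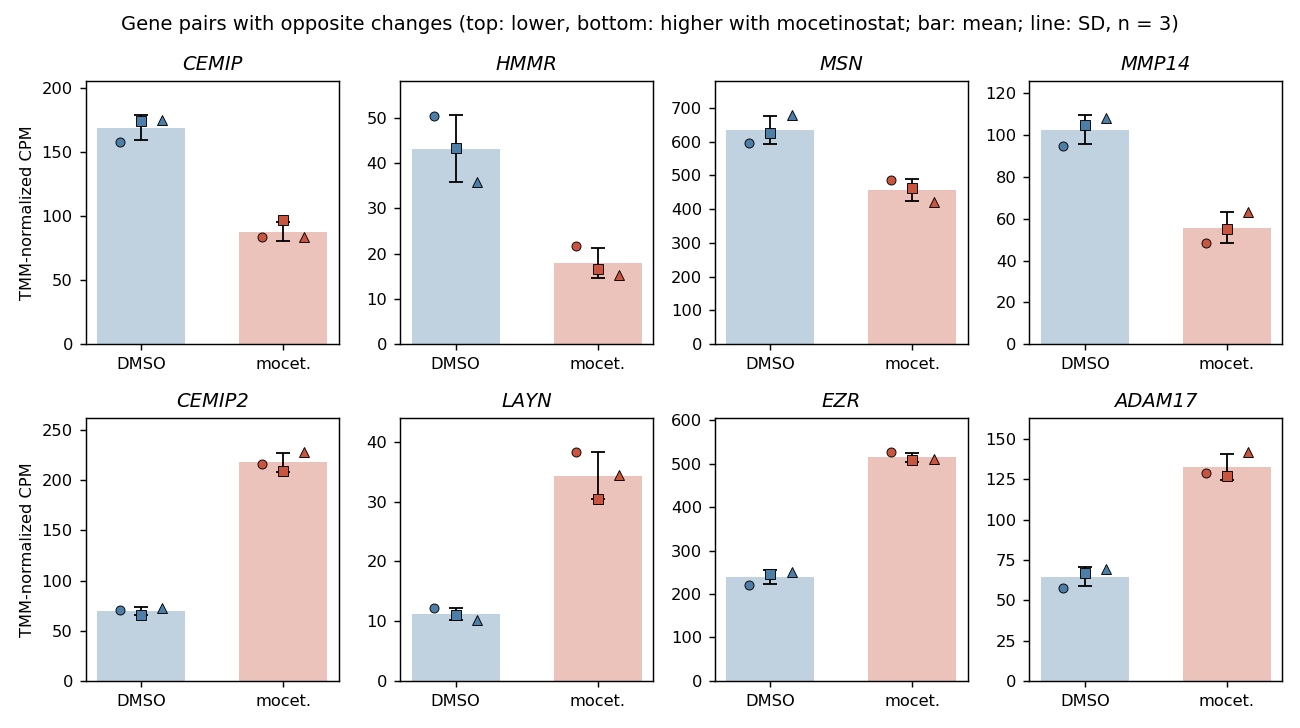
TMM-normalized CPM by condition for gene pairs with opposite changes (top, lower with mocetinostat; bottom, higher; circle, square, and triangle, replicates 1, 2, and 3; bar, mean; line, SD, n = 3). In each of the 8 panels the conditions are separate. In CPM, the bottom gene of each pair lies below the top gene with DMSO and above it with mocetinostat. Per kilobase of exon, *EZR* is already above *MSN* with DMSO (means 72.8 and 55.6), and *ADAM17* stays below *MMP14* with mocetinostat (means 8.31 and 12.1). The sign of *MSN* turned under *GAPDH* scaling.

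Partners of CD44 moved in both directions. Linkers to the actin cytoskeleton were all tested, with 2 of 6 higher, both upregulated, and 2 lower. Over all genes tested, 32.9% were higher, 20.2% upregulated, and 31.4% lower. *EZR*, which encodes ezrin, held 221, 246, and 251 CPM with DMSO and 527, 508, and 510 CPM with mocetinostat, a log2 fold change of 1.11 (SE 0.08, edgeR adjusted p = 3.56e-21). *MSN*, which encodes its relative moesin, held 597, 627, and 678 CPM with DMSO and 486, 462, and 421 CPM with mocetinostat, a log2 fold change of -0.47 (SE 0.07, edgeR adjusted p = 6.72e-08) that became 0.06 under *GAPDH* scaling. The ratio of *EZR* to *MSN* counts was 0.369, 0.393, and 0.370 with DMSO and 1.08, 1.10, and 1.21 with mocetinostat (exact two-sided permutation p = 0.1, the smallest possible). That p was likewise fixed by choosing the pair for its opposite changes and adds no support to them. The third relative, *RDX*, had a log2 fold change of -0.09 (edgeR adjusted p = 0.440). *ANK3*, an ankyrin that reached the filter's cutoff only in the treated samples, was upregulated from 1.36 ± 0.158 to 8.14 ± 2.22 CPM (SD, n = 3), and *IQGAP1*, a scaffold among the most abundant linkers, had a log2 fold change of 0.08 (edgeR adjusted p = 0.325).

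Of the 7 enzymes and subunits that cleave CD44, 3 were higher and 4 lower, against 32.9% and 31.4% of all genes tested. The sheddase *ADAM17* was upregulated, from 64.6 ± 6.04 to 133 ± 7.92 CPM (SD, n = 3), which is a log2 fold change of 1.04 (SE 0.11, edgeR adjusted p = 1.54e-13). This lies at the edge of the fold change threshold, and 11 of 15 alternatives called it upregulated, with a lowest value of 0.79. *ADAM10*, the highest of the list in CPM not divided by length, was higher by a log2 fold change of 0.22. The membrane metalloproteinase *MMP14* fell from 103 ± 6.87 to 55.7 ± 7.43 CPM (SD, n = 3), which is a log2 fold change of -0.90 (SE 0.12, edgeR adjusted p = 8.33e-10). Of the γ-secretase subunits, which release the intracellular part of CD44, *NCSTN*, *PSENEN*, and *APH1A* were lower by log2 fold changes of -0.73, -0.73, and -1.33. Of the splicing factors that act on *CD44* variable exons, *KHDRBS1* was lower by -0.43, which became 0.10 under *GAPDH* scaling, while *ESRP1*, with 16, 5, and 1 reads under DMSO and 49, 3, and 19 under mocetinostat, and *ESRP2*, with at most 8, were not tested.

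*HYAL3*, *HYAL1*, and *HYAL2* lie side by side on chromosome 3. Of 19 genes within 50 kb of them, besides the hyaluronidases, 11 were tested, with 2 upregulated and 1 downregulated, near the 20.2% and 8.18% of all genes tested, and their median log2 fold change was -0.10. *SEMA3B*, a secreted semaphorin, had 5.43 ± 2.30 and 21.1 ± 0.75 CPM (SD, n = 3), which is a log2 fold change of 2.01 (edgeR adjusted p = 2.53e-10), and *CACNA2D2*, a calcium channel subunit, one of 2.07 (edgeR adjusted p = 1.13e-10). *IFRD2*, whose start overlaps the end of *HYAL3* on the same strand, fell from 118 ± 6.74 to 33.4 ± 4.40 CPM (SD, n = 3), which is a log2 fold change of -1.78 (edgeR adjusted p = 6.16e-21). *RASSF1* and *TMEM115* were lower by -0.49 and -0.88, the former turning to 0.05 under *GAPDH* scaling. *TUSC2* and *NAA80*, which share exons with *HYAL2* and *HYAL3*, had log2 fold changes of -0.26 (edgeR adjusted p = 0.173) and 0.03 (edgeR adjusted p = 0.947).

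**Figure D5:**
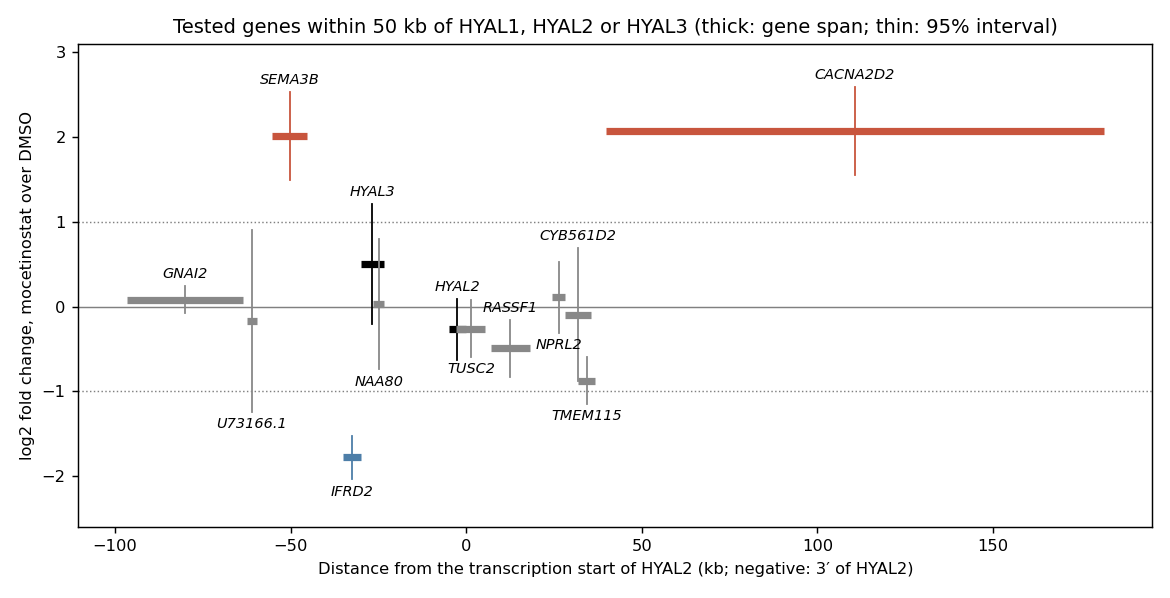
Log2 fold change of mocetinostat over DMSO against distance from the *HYAL2* transcription start in kb, for the tested genes within 50 kb of a hyaluronidase gene (thick bar, gene span; thin bar, 95% interval in edgeR; black, hyaluronidases; red, upregulated; blue, downregulated; grey, the rest). *SEMA3B* and *CACNA2D2* stand near 2 and *IFRD2* at -1.78, with *HYAL2* and *HYAL3* between them near 0.

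Near the other genes, *SLC1A2*, a glutamate transporter 18803 bases from *CD44*, held 4, 1, and 5 reads under DMSO and 56, 17, and 33 under mocetinostat, a log2 fold change of 4.66 (SE 0.48, edgeR adjusted p = 1.18e-13). *FPR1*, a formyl peptide receptor 21181 bases from *HAS1*, held 4, 3, and 6 reads under DMSO and 47, 14, and 26 under mocetinostat, a log2 fold change of 3.98 (SE 0.49, edgeR adjusted p = 5.83e-11). Both reached the filter's cutoff only in the mocetinostat-treated samples. On either side of *CEMIP*, *TLNRD1* and *ABHD17C* were lower by -0.84 and -0.41 (*ABHD17C* turned to 0.12 under *GAPDH* scaling), and *UTP4* near *HAS3* and *SPACA6* near *HAS1* by -0.59 and -0.68. *MESD*, whose exons on the opposite strand cover 2.94% of those of *CEMIP*, had a log2 fold change of 0.19 (edgeR adjusted p = 0.0904). Over all 48 neighbors, 21 were tested, 5 were upregulated and 1 was downregulated, against 20.2% and 8.18% of all genes tested, and the median log2 fold change was -0.17. Of the 5, 3 are the named genes that only the treated samples carried through the filter.

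For the 3 genes whose mean reached 10 CPM in a condition, the closest patterns over the 6 samples were sought as the smallest Euclidean distance in centered log2 CPM. For *CD44* these were *RNF113A* and *MORC2* (distances 0.0845 and 0.0867), for *CEMIP* they were *WIZ* and *ASH1L* (0.0994 and 0.104), and for *HYAL2* they were *ZNF91* and *KANSL1L* (0.220 and 0.230). With 2 conditions, this likeness reflects mainly an equal fold change, such as -1.03 for *WIZ* and 0.46 for *RNF113A*.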

How the data were processed

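RNA-Seq of 6 TC28a2 samples was analyzed from the single table of raw counts per gene that the authors deposited. Per the study's methods, the authors trimmed single reads, removed ribosomal RNA reads, aligned to GRCh38 (Ensembl 98), and counted genes; the submitters' processing notes name STAR 2.6.1d, featureCounts 1.6.4, and DESeq2 1.20.0. The strand setting is not given in the sources used here. Columns were matched to samples by name.

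The table was filtered with filterByExpr (minimum count 10), normalized by TMM, and tested with the quasi-likelihood test of edgeR 4.0.16 in R 4.3.3, with treatment as the only term and Benjamini-Hochberg adjustment over all 13966 genes tested. Standard errors were taken as the log2 fold change over the root of F. The steps were tested on simulated counts. Positions and exon lengths came from GENCODE 44 (GRCh38), to which 99.5% of identifiers matched. Shares and ratios were tested by exact two-sided permutation (scipy 1.17.1), and the ratios were chosen after their values were seen. Replicate pairs within a condition differed by 1.96 to 7.19 in chi-square per degree of freedom, more than sampling noise. This does not show that they are independent. Each counted as a sample on the study's statement of separate experiments. The alternatives were DESeq2 1.42.0, RLE factors, library size only, *GAPDH* scaling, no filter, 10 counts in every sample, glmTreat, a replicate block, thinning to 1619344 counts, and each sample left out.

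The genes and lists were chosen with earlier results of these data known. Named were the 8 genes, in each list the genes called and the most abundant, the neighbors within 50 kb, the 2 nearest patterns, and *GAPDH*; further list genes were named after their values were seen. Intervals of summed counts cover counting error only, as reads carry no molecular identifiers. A single promoter was found for each of 6 of the 7 hyaluronan genes looked up; *HYAL3* was not used. Some genes counted in the lists are not reported here by name.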

Additional observations from a re-analysis of the deposited data

How the results depend on the processing

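Calls in the hyaluronan genes changed for *HAS3*, *HYAL3*, and *CEMIP*. Upregulated hyaluronan genes numbered 2 under *GAPDH* scaling, *HAS3* and *HYAL3*, 0 with 10 counts required in every sample or after thinning, where *HAS3* was not tested, and 0 under glmTreat. Downregulated ones numbered 1 without an expression filter. Leaving out 1 sample at a time, both counts ranged from 0 to 1. In the related lists, *GAPDH* scaling gave 17 upregulated and 0 downregulated genes, no filter gave 4 downregulated, glmTreat gave 1 downregulated, and leaving out samples gave 10 to 12 and 2 to 3. Among neighbors, 10 counts in every sample gave 2 upregulated and no filter gave 3 downregulated. Over all genes, the calls were 4425 up and 284 down under *GAPDH* scaling, 2120 down without a filter, 1620 up and 704 down with 10 counts in every sample, 465 down under glmTreat, and 2842 to 3216 up and 1173 to 1267 down with a sample left out. *GAPDH* scaling and the missing filter shifted the median log2 fold change of all genes by 0.54 and -0.25; the cause of the latter was not tested.

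Signs turned under *GAPDH* scaling for *HYAL2* (0.27), *GNPNAT1* (0.33), *SUSD5* (0.14), *RDX* (0.45), *MSN* (0.06), *NF2* (0.19), *KHDRBS1* (0.10), *RASSF1* (0.05), and *ABHD17C* (0.12). They turned without a filter for *HAS2* (-0.07), *UGDH* (-0.12), *UAP1* (-0.18), *AMDHD2* (-0.17), *GNPDA2* (-0.09), *IQGAP1* (-0.17), *ADAM10* (-0.03), and *GFPT2* (-0.00). Leaving out 1 sample also turned *HAS2* (-0.17 to 0.53, negative without mocetinostat replicate 2), *AMDHD2* (-0.11 to 0.28, negative without mocetinostat replicate 3), and *GNPDA2* (-0.06 to 0.4, negative without mocetinostat replicate 1). Of 901 values of 61 named genes under the alternatives, 786 kept both direction and side of the threshold.

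Same-numbered samples did not deviate together (correlations 0.008, 0.012, and -0.016), so the numbers were not used as pairs. With the replicate block, the log2 fold change of *HAS3* was 1.77 and 2798 and 1133 genes were called up and down. The *HAS3* share of the synthases stayed higher by 11.7 to 30.1 points and the *HYAL2* share lower by -17.9 to -13.5 points with a sample left out. *HAS1* and *HYAL1* were near the floor in both conditions.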
